A study of Mus musculus with 4 samples.

Results

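The forkhead factors are transcription factors with a shared DNA-binding domain, the winged helix, and are sorted into subfamilies by the letter after Fox. They were taken from the expression table as the rows whose symbol is Fox followed by a subfamily letter from a to s, a number and at most 1 further letter. The rule found 44 of the 24421 genes in the table, in 19 subfamilies. RNA-seq had been made from GFP+ cells sorted from dissociated neural tubes of E11.5 mouse embryos, on a mixed ICR and C57Bl/6 background, of 2 genotypes, Prdm13 GFP/+ (Het) and Prdm13 GFP/GFP (Homo). Both genotypes carry the GFP allele, in which GFP and a stop codon sit in the first exon of Prdm13, so GFP marks the Prdm13 lineage in each and Het, not wild type, is the control. Het RNA came from 7 embryos and Homo RNA from 9, mixed into 1 pool per genotype, and 2 libraries were made from each pool. The libraries of a genotype are therefore technical replicates (SD, n = 2 libraries of 1 RNA pool, for all SDs below), and every p measures the spread between libraries, with none of the spread between embryos. The comparison asks which forkhead genes change in these cells when PRDM13 is lost.

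Forkhead factors bind DNA mainly through a recognition helix that lies in the major groove. Several work early in the neural tube: FOXA factors in the floor plate, FOXD3 in early interneuron classes and in neural crest, and FOXN4 in ventral interneuron progenitors. Others are broadly expressed, such as FOXO1, FOXO3 and FOXO4, which PI3K and AKT signalling keeps out of the nucleus. FOXM1 drives genes of mitosis, and FOXK and FOXP factors mostly repress. FOXJ1 switches on the genes of motile cilia. In sorted bulk RNA, fewer cells of a type and less RNA per cell cannot be told apart.

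The coding sequence around the recognition helix is shown for the 4 members called different between the genotypes, for Foxo1, which was called by some tests only, and for Foxp4, from the subfamily with the largest summed level in Het. Each stretch holds 96 bases of the coding strand from the GENCODE vM21 transcripts on GRCm38, and the 24 bases in capitals are the 8 codons of the helix, found with a pattern of its conserved residues.
Foxd3 (chr4:99657117-99657212, + strand, exon 1): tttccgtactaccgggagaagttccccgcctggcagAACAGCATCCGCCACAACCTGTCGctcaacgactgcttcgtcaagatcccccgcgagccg
Foxb1 (chr9:69760013-69760108, - strand, exon 2): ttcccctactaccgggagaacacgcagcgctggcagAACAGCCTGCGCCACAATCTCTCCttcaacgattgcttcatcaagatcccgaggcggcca
Foxj1 (chr11:116332418-116334077, - strand, exons 2 and 3): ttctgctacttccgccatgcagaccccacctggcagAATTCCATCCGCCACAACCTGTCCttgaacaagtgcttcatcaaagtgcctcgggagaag
Foxo6 (chr4:120269123-120286874, - strand, exons 1 and 2): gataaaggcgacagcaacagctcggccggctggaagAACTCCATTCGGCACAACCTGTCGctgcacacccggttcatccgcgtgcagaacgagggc
Foxo1 (chr3:52269387-52345098, + strand, exons 1 and 2): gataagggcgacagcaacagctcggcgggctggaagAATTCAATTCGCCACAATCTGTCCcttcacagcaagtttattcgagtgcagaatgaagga
Foxp4 (chr17:47871292-47874670, - strand, exons 13 and 14): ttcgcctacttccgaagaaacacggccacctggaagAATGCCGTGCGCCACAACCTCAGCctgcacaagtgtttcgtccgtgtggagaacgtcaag
Where a stretch crosses from one exon to the next, its coordinates span the intron between them. The pattern was found in 41 of the 44 members, all but Foxh1, Foxr1 and Foxr2. These 41 members encoded 7 different helices by 37 different coding sequences, and the most common helix was that of 23 members. Foxd3 and Foxj1, which moved in opposite directions, encoded the same residues at all 8 codons with 20 of 24 bases shared, and had 66 of the 96 bases in common. Foxo6 and Foxo1 shared 79 of 96 bases, the most of any pair shown. Foxp4 encoded the same residue as Foxd3 at 6 of the 8 codons.

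The deposited values are RPKM, the reads of a gene scaled to its exon length and to library size. From their steps, whole read numbers were obtained for 99.8% of the genes with any signal, and these reads summed to 11492789 and 18286780 in Het 1 and Het 2 and to 16323870 and 13808853 in Homo 1 and Homo 2. Prdm13 itself was at 113.9 and 126.8 RPKM in Het and at 309.5 and 324.5 RPKM in Homo (log2 fold change 1.40, adjusted p = 3.63e-05). Reads from the disrupted allele still count, so this level does not report functional Prdm13. All 12 markers listed for the dorsal neural tube were detected, with a summed level of 671 to 888 RPKM, Prdm13 included. Those of other sources were low: 4.77 to 6.28 RPKM for 12 mesenchyme markers, 2.38 to 2.74 RPKM for 6 endothelial markers and 47.2 to 49.7 RPKM for 6 erythroid markers, nearly all of it embryonic globin RNA.

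A forkhead gene was tested where its mean RPKM was at least 1 in either genotype, which 17 of the 44 members, in 8 subfamilies, passed. Of these, Foxj1 and Foxo1 passed only through Homo, since their Het means were under 1. The test was limma on log2(RPKM + 0.1), a scale that understates the fold of low genes, and a gene was called at a Benjamini-Hochberg adjusted p under 0.05 over all 12046 genes tested and a fold of at least 1.5. Of the members, 2 were called higher in Homo (Foxj1 and Foxo6) and 2 lower (Foxd3 and Foxb1). Over all genes tested, 3.65% were called higher and 2.67% lower. Whatever the fold, 4 members had a higher and 7 a lower level at an adjusted p under 0.05, where 9.76% and 9.95% of all genes did (19.7% in either direction). Both Homo libraries lay above both Het libraries at 5 members and below them at 7, against 31.7% and 30.3% of all genes. The median log2 fold change of the 17 members was -0.08 beside 0.01 over all genes, and their median absolute log2 fold change 0.36 beside 0.13.

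**Figure D1:**
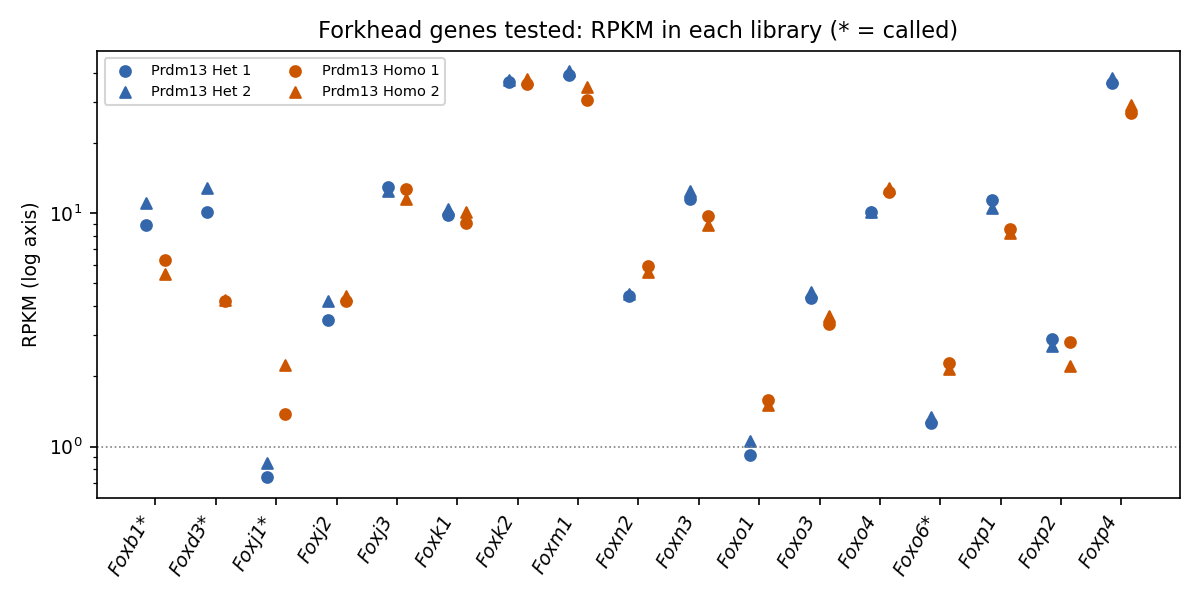
RPKM of the 17 forkhead genes tested (vertical axis, log scale) in each of the 4 libraries. Circles and triangles are libraries 1 and 2 of a pool, blue for Het and orange for Homo, an asterisk marks a called gene and the dotted line is 1 RPKM. Foxd3 shows the widest gap between genotypes among the genes called lower, and Foxj1 and Foxo6 lie near 1 to 2 RPKM.

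By summed RPKM the Foxp subfamily was the most abundant in Het, at 50.4 and 51.2, followed by Foxk at 46.2 and 47.8 and Foxm1 at 39.1 and 40.7. Foxj followed at 17.2 to 18.3 RPKM and Foxo at 16.6 to 20.2 RPKM over the 4 libraries, Foxj being the higher in Het and Foxo in Homo. The other subfamilies were lower, and the 44 members together summed to 207 and 219 RPKM in Het and to 179 and 187 RPKM in Homo. In Homo the order of the leading subfamilies was Foxk (44.8 and 47.7), Foxp (38.2 and 39.6) and Foxm1 (30.4 and 34.7). The Foxp and Foxm levels were thus lower in both Homo libraries, while the Foxk sums overlapped between the genotypes.

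Foxd3, a repressor best known from neural crest and from dI2 and V1 interneurons, fell most among the tested members. It was at 10.1 RPKM in Het 1, 12.8 in Het 2, 4.199 in Homo 1 and 4.25 in Homo 2, from 278, 557, 162 and 138 reads. The Homo libraries were nearly equal and both far below the Het libraries. The mean was 2.71-fold lower in Homo, from 11.47 ± 1.90 to 4.23 ± 0.0373 RPKM, with a fitted log2 fold change of -1.41 (SE, the standard error, 0.114, adjusted p = 0.000527). Of the called members, Foxd3 alone was called with each library left out in turn, with log2 fold changes from -1.58 to -1.24. The other Foxd genes had at most 14 reads in a library.

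Of a list of 15 genes that go with FOXD3 in dI2 and V1 interneurons and in neural crest, 11 were tested, and 3 were called higher and 4 lower, with a median log2 fold change of -0.09. The homeodomain genes Lhx1 and Lhx5, which mark dI2, dI4 and V1 neurons among others, changed by -2.48 and -2.12 on the log2 scale. By antibody staining at an earlier stage, the authors found dI4 neurons lost and dI2 neurons markedly reduced in the mutants. The change in Lhx1 and Lhx5 RNA is thus not particular to dI2 or V1 neurons. En1, the defining gene of V1 neurons, was under the filter with 3 and 10 reads in Het and 32 and 36 in Homo. A test added after the data had been seen, limma voom on genes with 10 reads or more, called it higher (2.36, adjusted p = 0.000238). That test took all 15 genes of the list and called 4 higher and 4 lower. Neurog1 (1.79), a bHLH gene of dI2, dI6 and ventral progenitors, and Pou4f1 (1.59), which marks dI2 among other dorsal neurons, were called higher in Homo. Ret and Tfap2a were the other genes of the list called lower, and Neurog2 the other called higher. The defining crest and glial gene Sox10 was at 0.255 and 0.603 RPKM in Het and at 0.680 and 0.781 RPKM in Homo, and Erbb3 at 0.0765 to 0.109 RPKM in all 4 libraries. The 12 dorsal neural tube markers summed to 814 and 888 RPKM in Het and to 671 and 699 in Homo, with 7 called lower and 2 higher. They include Lhx1 and Lhx5 again, and Prdm13, at 113.9 and 126.8 RPKM in Het and 309.5 and 324.5 in Homo. Reads from the disrupted Prdm13 allele count in this sum, so the other markers together fell by more than it shows. The part of these markers in the change of Foxd3 was not tested.

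The 250 bases before the start of Foxd3 are shown because it changed most, as given by RefSeq on GRCm38.p6 (+ strand). The authors propose that PRDM13 is recruited by bHLH factors, which bind the E-box CANNTG. They describe PRDM13 as a repressor and its binding sites as mostly distal to transcription starts, which this window does not cover. They do not mark Foxd3 as a gene with an associated PRDM13 binding site. The only match to CANNTG is in capitals.
Foxd3 upstream (chr4:99656049-99656298): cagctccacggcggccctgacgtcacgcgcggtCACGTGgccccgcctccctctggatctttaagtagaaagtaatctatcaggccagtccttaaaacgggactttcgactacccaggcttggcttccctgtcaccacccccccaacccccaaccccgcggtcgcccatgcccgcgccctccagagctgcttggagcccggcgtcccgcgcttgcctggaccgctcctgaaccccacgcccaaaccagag
Of 32851 promoter windows of this length, 66.2% held at least 1 CANNTG, searched on both strands. The form CAGCTG was in 4 of the 33 windows of 28 members, not in that of Foxd3, and in 13.0% of all windows. The forkhead motif TGTTTAC or its reverse complement GTAAACA was in 1 member window, that of Foxa1, and in 3.17% of all windows. A match is only a run of letters, and windows for Foxb1, Foxj1 and Foxo6 were not analysed here.

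Foxb1, a gene of the developing neural tube and diencephalon, was the other member called lower. Its level was 8.92 and 11.1 RPKM in Het and 6.33 and 5.46 RPKM in Homo, from 308, 607, 307 and 223 reads. The groups did not overlap, and Het 1 and Homo 1 were the closest libraries across the genotypes. The mean was 1.70-fold lower in Homo (10.01 ± 1.54 against 5.90 ± 0.611 RPKM), a log2 fold change of -0.75 (SE 0.122, adjusted p = 0.00858). The call was lost without Het 2 (-0.59, adjusted p = 0.0646) and without Homo 2 (-0.64, adjusted p = 0.0991). An antisense gene, B230323A14Rik, overlaps an exon of Foxb1 over 418 bp and was at 0.106 to 0.224 RPKM. Whether the counting used strand is not given in the sources used here.

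Its paralogue Foxb2 fell just short of the filter, with a Het mean of 0.991 RPKM. It had 12 and 36 reads in Het and 3 in each Homo library, and a ratio of Het over Homo of 8.01 (exact 95% interval 3.42 to 22.9, counting error only). Both Foxb genes were thus lower in Homo, Foxb2 at far fewer reads. With limma voom on every gene with 10 reads or more over the 4 libraries, a test added after the data had been seen, Foxb2 was called lower, with a log2 fold change of -2.76 (SE 0.559, adjusted p = 0.000506). That test called 3.61% of 15144 genes higher and 3.22% lower.

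**Figure D2:**
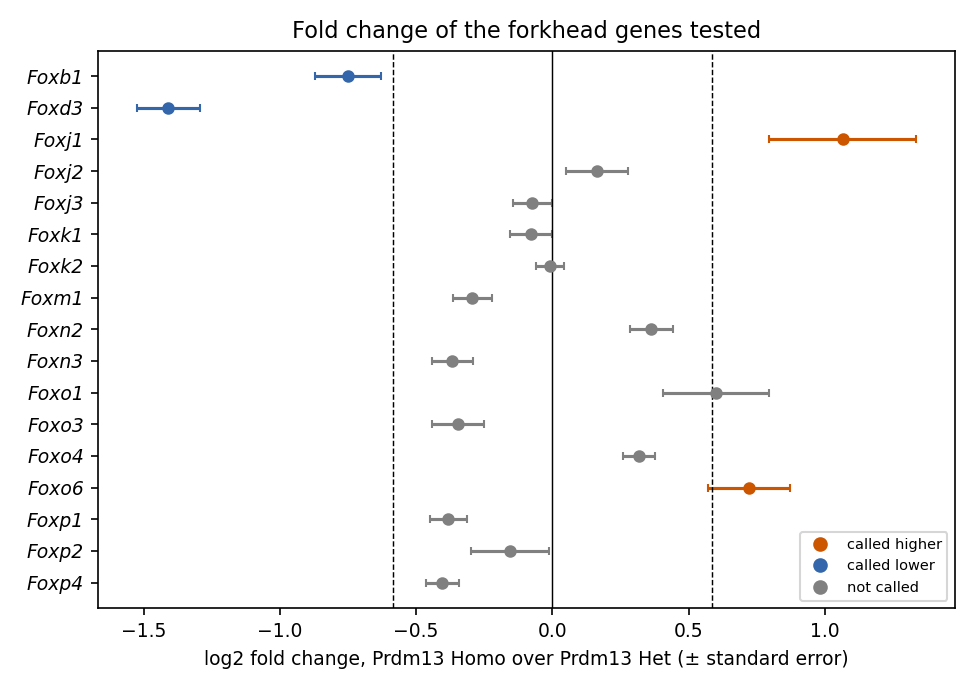
Log2 fold change of Homo over Het for the 17 forkhead genes tested (horizontal axis), with the standard error from limma as bars. Blue points were called lower, orange points higher and grey points not called, and dashed lines mark a 1.5-fold change. Foxd3 is farthest left at -1.41 and Foxj1 farthest right at 1.07, and Foxo1 lies past the line without being called.

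Foxj1, the regulator of motile cilium genes that is also expressed in the floor plate, had the largest increase among the tested members. It was at 0.737 and 0.847 RPKM in Het and at 1.38 and 2.24 RPKM in Homo, from 22, 40, 58 and 79 reads. The Homo libraries were both higher, but they differed from each other by more than the Het libraries did. The mean rose from 0.792 ± 0.0773 to 1.81 ± 0.606 RPKM, a log2 fold change of 1.07 (SE 0.269, adjusted p = 0.0372). The call was lost without Het 1 (0.98, adjusted p = 0.130), Het 2 (1.15, adjusted p = 0.1001) or Homo 2 (0.74, adjusted p = 0.159), and without the trend in limma's prior (adjusted p = 0.0625). Its subfamily members Foxj2, at 3.50 to 4.42 RPKM, and Foxj3, at 11.48 to 12.9 RPKM, are broadly expressed and did not pass the test, with log2 fold changes of 0.16 and -0.07 and overlapping libraries.

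A list of 24 genes of FOXJ1 and the motile cilium held 10 genes that were tested, and 3 of these were called higher and 0 lower, with a median log2 fold change of 0.01. The called genes were the dynein intermediate chain genes Dnaic1 (0.84, adjusted p = 0.0257) and Dnaic2 (0.94, adjusted p = 0.0128) and the radial spoke gene Rsph9 (0.77, adjusted p = 0.0249). With 1 library left out, 0 to 1 of the 10 were called. Mcidas, which starts the multiciliated programme, had 5 or 6 reads in every library and Gmnc had 0. The other axonemal dynein Dnah11, under the filter, had 4 reads in each Het library and 40 and 25 in Homo, whereas Dnah9 had 36 and 35 in Het and 22 and 17 in Homo. By limma voom on genes with 10 reads or more, Dnah11 was called higher (2.86, adjusted p = 6.39e-05) and Dnah9 was not called (-0.82, adjusted p = 0.0633). Of 19 genes of the list, that test called Dnah11, Dnaic1 and Dnaic2, and Rsph9 missed its threshold (0.72, adjusted p = 0.0519). The genes of the list thus did not move together.

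Floor plate genes stood as follows beside Foxj1. Foxa2, which defines the floor plate, had 0, 5, 2 and 4 reads in Het 1, Het 2, Homo 1 and Homo 2, and Foxa1 had 5 reads in Homo 1 and 0 in the other libraries. Shh had 4 and 7 reads in Het and 12 and 16 in Homo. Of a list of 12 genes that go with FOXA2, 4 were tested, with a median log2 fold change of 0.43, and the axon guidance gene Slit1 was called higher (0.61, adjusted p = 0.00198), a call that was lost on the fold without Het 1 (0.54) or Homo 2 (0.58). Ntn1, another guidance gene, was lower by -0.54 on the log2 scale (adjusted p = 0.00136), short of the fold. Spon1, a secreted floor plate protein gene, was at 0.701 and 0.682 RPKM in Het and at 1.21 and 1.08 in Homo, so it passed the filter only through Homo. It missed the adjusted p of 0.05 by limma (0.65, adjusted p = 0.114) and was called higher by limma voom on genes with 10 reads or more (0.72, adjusted p = 0.00251). That voom test took 9 genes of the FOXA2 list and called 2 higher, Slit1 and Spon1. It called 1 lower, Bmp7 (-1.20, adjusted p = 0.00343), with 41 and 49 reads in Het and 19 and 20 in Homo. Of the 7 floor plate markers, which include Foxj1, 3 were tested, with Foxj1 and Spon1 above 0 and Ntn1 below. Ntn1 made up most of their summed level, at 20.8 and 21.2 RPKM in Het and 14.2 and 14.6 in Homo. The other 6 together were at 1.66 and 1.81 RPKM in Het and at 3.17 and 3.93 in Homo, mostly from Foxj1 itself and Spon1. Foxj1 alone was at 0.737 and 0.847 RPKM in Het and at 1.38 and 2.24 in Homo, so this sum is not independent of it. The part of the other floor plate markers in the level of Foxj1 was not tested.

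The 4 Foxo genes, all tested, did not share a direction. Foxo6, the brain-enriched member, was at 1.26 and 1.34 RPKM in Het and at 2.29 and 2.14 RPKM in Homo, from 37, 62, 94 and 74 reads. The libraries of each genotype were close and the genotypes well apart. The mean was 1.70-fold higher in Homo (1.30 ± 0.0522 against 2.21 ± 0.104 RPKM), a log2 fold change of 0.72 (SE 0.151, adjusted p = 0.0203). The call was lost with a pseudocount of 1 (0.48, adjusted p = 0.0188), where the fold fell short, and with any library left out, where the log2 fold change ran from 0.68 (without Homo 1) to 0.77 (without Homo 2) and the adjusted p from 0.0572 (without Het 2) to 0.103 (without Homo 1), with 0.0748 without Het 1 and 0.0896 without Homo 2.

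Foxo1, a broadly expressed metabolic and cell-survival regulator, was at 0.918 and 1.06 RPKM in Het and at 1.58 and 1.51 RPKM in Homo. Its Homo libraries were both higher, as for Foxo6. Its log2 fold change of 0.60 (SE 0.194) passed the fold and missed the adjusted p of 0.05 at 0.0773. It was called without the trend in limma's prior (adjusted p = 0.0238) and by limma voom on the recovered reads (0.61, adjusted p = 0.00229), which called 3.66% of all genes it tested higher and 3.11% lower. Foxo4 was at 10.1 RPKM in each Het library and at 12.3 and 12.9 in Homo, higher by 0.32 on the log2 scale (adjusted p = 0.0142), short of the fold. Foxo3 went the other way, from 4.34 and 4.59 RPKM in Het to 3.34 and 3.64 in Homo (-0.35, adjusted p = 0.0482). The subfamily summed to 16.6 and 17.1 RPKM in Het and to 19.5 and 20.2 in Homo, with Foxo4 the largest share. An opposite-strand gene, Gm20402, overlaps an exon of Foxo1 over 589 bp.

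Of 23 genes listed as FOXO targets, 20 were tested, 0 were called higher and 2 lower, with a median log2 fold change of -0.05. The called genes were the cell cycle gene Ccnd1 (-0.94, adjusted p = 8.04e-05) and the ubiquitin ligase gene Fbxo32 (-0.60, adjusted p = 0.0218). Ccnd1 was called with every library left out and Fbxo32 lost its call whichever library was left out. Cdkn1b, a defining FOXO target that inhibits cyclin-dependent kinases, was at 39.1 and 40.5 RPKM in Het and at 33.5 and 34.0 RPKM in Homo (-0.24, adjusted p = 0.0195). Ccnd2 was higher by 0.45 (adjusted p = 0.00139). The list thus held genes in both directions. It was not split by whether FOXO factors raise or lower a gene, so its counts and median do not report FOXO activity.

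Of the 21 genes listed for the control of FOXO by PI3K and AKT, limma called 0, as did limma voom, while 7 had an unadjusted p under 0.05, which 34.1% of all genes tested had, and the median log2 fold change was -0.02. Akt1, the kinase that acts directly on FOXO factors, was at 102 and 109 RPKM in Het and at 140 and 146 RPKM in Homo. This was an increase of 0.44 on the log2 scale (adjusted p = 0.00256), short of a 1.5-fold change. Sgk1, a kinase with FOXO3 among its substrates, was lower by -0.51 (adjusted p = 0.0418).

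The Foxp genes encode repressors that pair through a leucine zipper and shape neuronal identity. Foxp4, with a role in the detachment of new neurons from the neuroepithelium, was at 35.98 and 37.9 RPKM in Het and at 26.8 and 29.0 RPKM in Homo. Foxp1, known from motor neuron columns, was at 11.4 and 10.6 RPKM in Het and at 8.58 and 8.23 in Homo. Both were lower in both Homo libraries and short of the fold, with log2 fold changes of -0.40 (SE 0.0609, adjusted p = 0.00636) and -0.38 (SE 0.0690, adjusted p = 0.0124). Foxp2 was at 2.90 and 2.69 RPKM in Het and at 2.80 and 2.22 in Homo, with overlapping libraries (-0.16, adjusted p = 0.486). Foxp3, the regulatory T cell factor, had 4 to 7 reads in every library.

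Foxm1 encodes the activator of genes needed at the entry into mitosis and was the most abundant single member in Het. It was at 39.1 and 40.7 RPKM in Het and at 30.4 and 34.7 RPKM in Homo, lower in both Homo libraries by -0.29 on the log2 scale (SE 0.0720, adjusted p = 0.0342) and short of the fold. Of 23 genes listed as FOXM1 targets, 23 were tested and limma called 0, as did limma voom. All 23 had a negative log2 fold change, 22 of 23 with Het 1, Het 2 or Homo 1 left out, and the median was -0.30 beside 0.01 over all genes. An unadjusted p was under 0.05 for 18 of them, where 16.8% of all genes passed it with a lower level, and an adjusted p for 15, where 9.95% of all genes did. The latter count was 4 to 10 with a library left out and 4 without Homo 2. Markers of neurons and progenitors stood as follows beside these genes. The 6 neuron markers summed to 1627 and 1673 RPKM in Het and to 1994 and 2075 in Homo. Of these, 4 were higher and 0 lower at an adjusted p under 0.05. Among the 4 were the tubulin gene Tubb3 (0.34, adjusted p = 0.00688) and Stmn2, which was the 1 called (0.61, adjusted p = 0.000283). The other 2, Map2 and Dcx, were lower in both Homo libraries, the larger change being -0.16 on the log2 scale. With a library left out 1 to 2 of the 6 were higher at that adjusted p, and without Homo 1 Stmn2 was short of the fold (0.58). The 6 progenitor markers summed to 2071 and 2032 RPKM in Het and to 2031 and 2102 in Homo, with Sox2 lower (-0.48, adjusted p = 0.00214) and Hes5 (0.42, adjusted p = 0.0218) and Pax6 (0.26, adjusted p = 0.0202) higher, all short of the fold. Their part in the levels of Foxm1 and its targets was not tested.

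Within that list, the proliferation marker Mki67 changed most, from 55.1 and 52.1 RPKM in Het to 37.0 and 35.8 RPKM in Homo. Its log2 fold change was -0.56 (adjusted p = 0.00101), close to the fold needed for a call. The mitotic kinase gene Aurkb was at 46.3 and 47.0 RPKM in Het and at 37.6 and 37.7 in Homo (-0.31), and Ccnb1 changed by -0.34. Cenpa, a centromere histone gene, was at 54.8 to 56.8 RPKM in every library (-0.03, adjusted p = 0.693).

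The Foxn genes moved apart from each other. Foxn2 was at 4.44 and 4.51 RPKM in Het and at 5.96 and 5.61 RPKM in Homo, a log2 fold change of 0.36 (SE 0.0797, adjusted p = 0.0237). Foxn3, a repressor with a role in the cell cycle checkpoint, was at 11.52 and 12.5 RPKM in Het and at 9.71 and 8.88 in Homo, a log2 fold change of -0.37 (SE 0.0752, adjusted p = 0.0190). Both changes were short of the fold, and the subfamily sums (15.98 and 17.1 RPKM against 15.7 and 14.6) hid them. Foxn4, which specifies V2 interneurons, had at most 3 reads in a library. Of 11 genes listed with FOXN4 for V2 neurons, 3 were tested, with a median log2 fold change of -0.48. With no filter the median over all 11 was -0.01, and by limma voom on genes with 10 reads or more it was 0.07 over 10, of which 3 were called higher and 2 lower. Among the low genes, Vsx1 (2.40, adjusted p = 0.0153) and Dll4 (1.25, adjusted p = 0.0225) were higher in that test. Vsx1 had 1 read in each Het library and 9 and 6 in Homo. Lhx4, with 9 and 39 reads in Het and 6 and 3 in Homo, was lower (-2.20, adjusted p = 0.00484). Bhlhe22, a bHLH gene also used by other interneurons, was called higher (1.47, adjusted p = 5.25e-05), and Sox1, also a general progenitor gene, lower (-0.68, adjusted p = 0.00118). Gata3, which defines the V2b class, had 3 and 5 reads in Het and 5 and 4 in Homo.

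The Foxk genes, which encode repressors that recruit SIN3, showed no difference at this precision. Foxk2 was at 36.3 and 37.3 RPKM in Het and at 35.7 and 37.5 in Homo, and the Homo libraries enclosed the Het libraries (-0.01, SE 0.0519, adjusted p = 0.926). Foxk1 was at 9.86 and 10.5 RPKM in Het and at 9.12 and 10.2 in Homo (-0.08, SE 0.0766, adjusted p = 0.519). Of 23 cofactor genes listed for forkhead factors, all tested, the Groucho gene Tle2 was the 1 called higher (1.15, adjusted p = 0.0424), 0 were called lower, and the median log2 fold change was -0.05. Tle2 was low, at 0.388 and 0.543 RPKM in Het and 1.09 and 1.20 in Homo, and passed the filter only through Homo. With a library left out it was called only without Het 2, where Tle1 was called as well. Tle1 (0.55, adjusted p = 0.00166) and Tle3 (0.39, adjusted p = 0.00391), members of the same corepressor family, were higher and short of the fold. Sin3a was at 30.1 to 33.5 RPKM in all libraries (-0.12, adjusted p = 0.143).

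**Figure D3:**
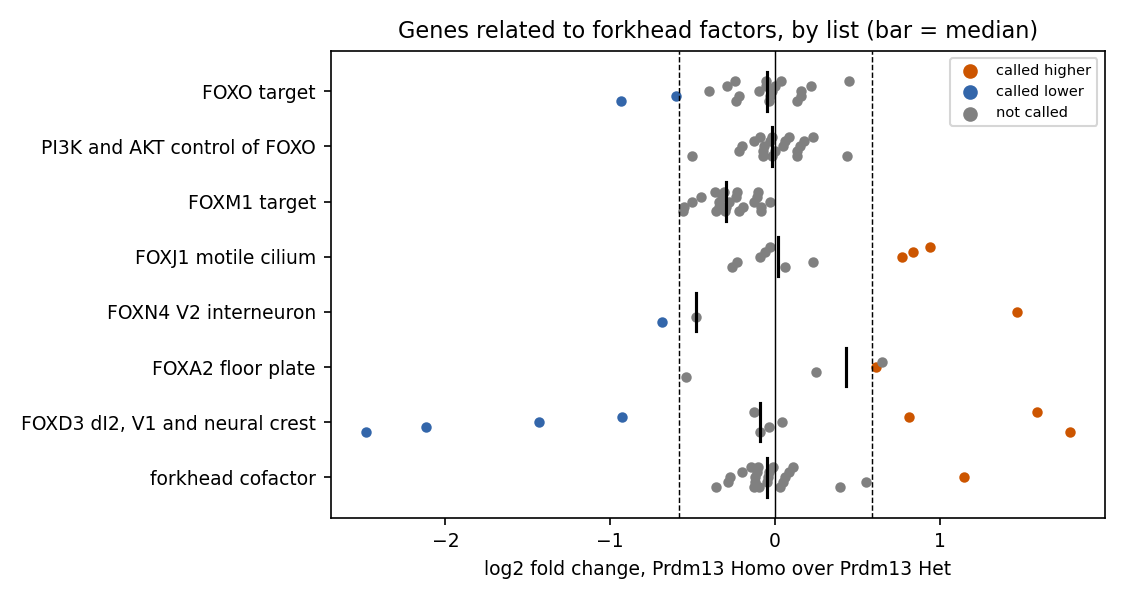
Log2 fold change of Homo over Het (horizontal axis) for each tested gene of the 8 lists related to forkhead factors, 1 list a row. Orange points were called higher, blue lower and grey not called, a black bar is the list's median and dashed lines mark a 1.5-fold change. All FOXM1 target points lie left of 0, while the points of the FOXD3 list run from -2.48 to 1.79.

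The other 27 members stayed under the filter, 26 of them with a mean RPKM under 0.5 in both genotypes. Foxe1, Foxi1 and Foxi3, genes of thyroid, ionocyte and placode development, had 0 reads in all 4 libraries, and a count of 0 allows up to 3 reads a library. Another 9 had at most 3 reads in every library: Foxa3, Foxd2, Foxd4, Foxf1, Foxh1, Foxi2, Foxn1, Foxn4 and Foxs1. The remaining 15 had over 3 reads in a library, and Foxb2 was the only one with over 20. At these depths differences were mostly not detectable.

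Among the low members, Foxc1 and Foxc2 belong to mesenchyme and vessels. Foxc2 had 9 and 8 reads in Het and 2 in each Homo library, and Foxc1 had 9 and 17 reads in Het and 9 and 8 in Homo. The ratio of Het over Homo for Foxc2 was 4.26 (exact 95% interval 1.39 to 17.4), and limma voom on genes with 10 reads or more called it lower (-1.83, SE 0.641, adjusted p = 0.0405). The summed RPKM of the 12 mesenchyme markers, Foxc2 included, was 6.01 and 6.28 in Het and 4.77 and 4.798 in Homo, with Col1a2 the only one tested (-0.31, adjusted p = 0.298), and its part in the Foxc2 counts was not tested. Foxd1, a stromal gene, had 9 and 14 reads in Het and 12 and 14 in Homo, and Foxf2 had 3 and 10 reads in Het and 7 and 11 in Homo.

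The telencephalic marker Emx2 had 0 reads in all libraries. Of the 4 telencephalon markers listed, only Lhx2, also a gene of dI1 interneurons, was tested, and it was called higher (1.05, adjusted p = 0.0228). It was at 0.643 and 0.658 RPKM in Het and at 1.37 and 1.53 in Homo, and passed the filter only through Homo, and its call was lost without Het 1 (adjusted p = 0.0513), Homo 1 (0.0775) or Homo 2 (0.0988). The lens gene Foxe3 had 1 and 8 reads in Het and 1 and 0 in Homo. Foxr2 had 5 and 4 reads in Het and 2 and 0 in Homo. By limma voom on genes with 10 reads or more the latter 2 genes missed the threshold (adjusted p = 0.0746 and 0.0751). Of the 30 members that this test could take, 3 were called higher (Foxj1, Foxo1 and Foxo6) and 4 lower (Foxd3, Foxb1, Foxb2 and Foxc2).

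**Figure D4:**
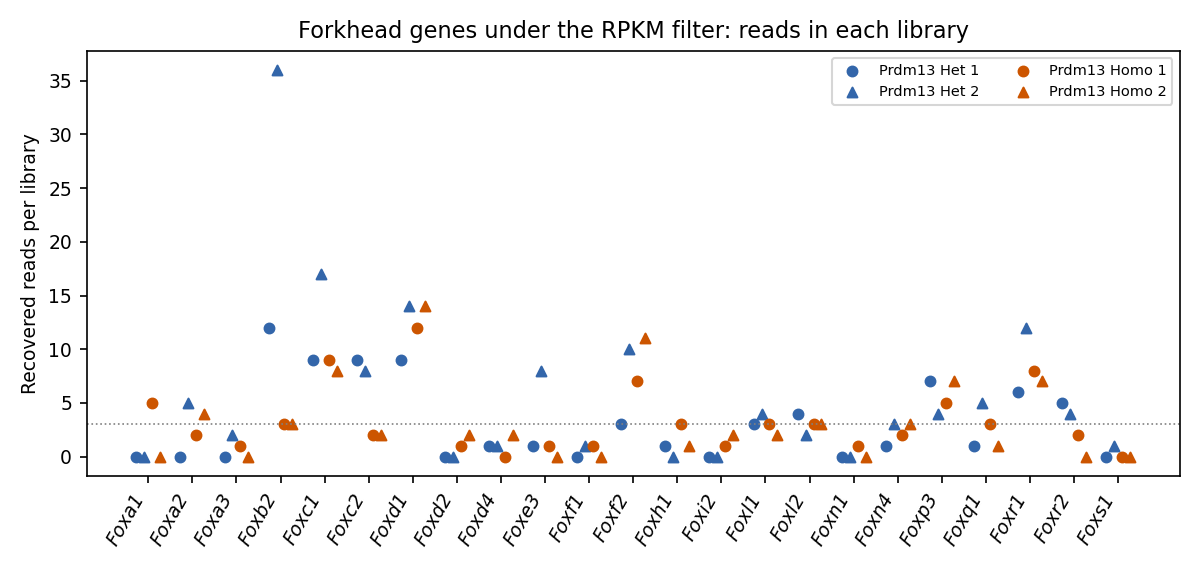
Recovered reads in each library (vertical axis) for 23 forkhead genes under the filter that had reads. Circles and triangles are libraries 1 and 2 of a pool, blue for Het and orange for Homo, and the dotted line marks 3 reads. Foxb2 stands out with 12 and 36 reads in Het against 3 and 3 in Homo.

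Some low members lie next to each other in the genome. On chromosome 13 of GRCm38, Foxq1, Foxf2 and Foxc1 follow each other with gaps of 64.8 and 175.2 kb, and had at most 5, 11 and 17 reads in a library. On chromosome 8, Foxf1, Foxc2 and Foxl1 are 28 and 8.8 kb apart, with at most 1, 9 and 4 reads. Foxd2 and Foxe3 lie 15.5 kb apart on chromosome 4, with at most 2 and 8 reads. No clustered member passed the filter. Foxd3 and Foxo6 are also on chromosome 4 but stand alone, at 99656299 to 99658671 and at 120267078 to 120287261.

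Leaving out a library changed more calls than any change of scaling. With 1 library left out, 1 to 4 members had an adjusted p under 0.05, in place of 11, and the 4 members left without Het 1 included Foxb2, which then passed the filter. Foxd3 remained in all 4 of these fits and Foxp4 in 2, without Het 1 and without Homo 2. The smaller changes of Foxn2, Foxn3, Foxo3, Foxo4 and Foxp1 did not pass with any library left out.

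**Figure D5:**
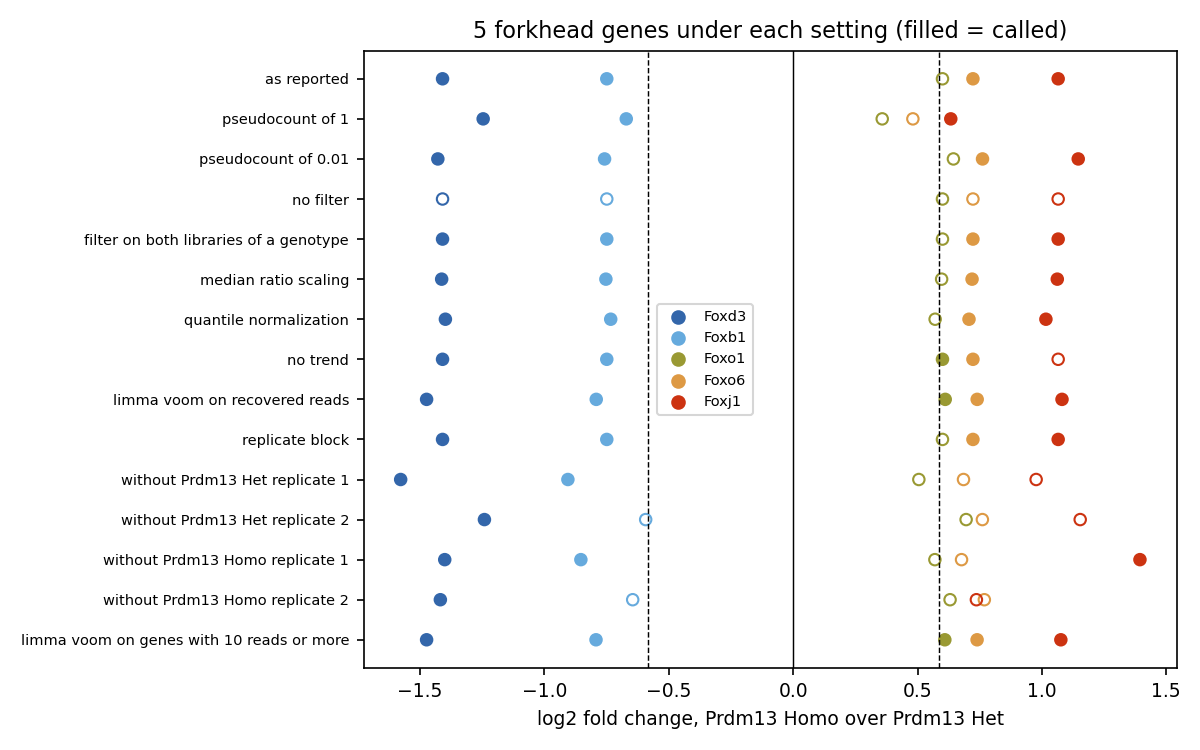
Log2 fold change of Homo over Het (horizontal axis) for 5 forkhead genes as reported and under each of 14 other settings, 1 setting a row. Filled points were called and open points not, and dashed lines mark a 1.5-fold change. Foxd3 is filled in every row but the one without a filter, and each of the 5 genes keeps its side of 0 throughout.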

How the data were processed

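RNA-seq of 2 Het and 2 Homo libraries, grouped by the submitters' labels, was analysed. The authors aligned reads to mm10 with TopHat2 2.1.0, counted them on RefSeq exons with featureCounts, normalized them by TMM in edgeR 3.6.8 and deposited RPKM, with 0 columns of no sample. Whole reads were recovered from the RPKM steps for 19161 of 19200 genes above 0 (within 0.05 reads), and the recovery was tested on simulated data, with 97.7% of 6172 genes exact. The main test was limma 3.58.1 in R 4.3.3 (lmFit, eBayes with a trend, two-sided, Benjamini-Hochberg) on log2(RPKM + 0.1) of genes whose mean RPKM reached 1 in Het or in Homo. On simulated libraries with 11939 genes tested, 111 of 112 4-fold and 82 of 88 2-fold changes were called, with 32 false calls, 2 of them at 20 reads or more in a library. The changed genes were drawn from better-covered genes that passed the filter, and no change near 1.5-fold was simulated. These rates therefore do not cover genes at low depth or changes close to the fold needed for a call. Libraries of a pool differed by more than sampling (mean chi-square per gene 2.37 and 2.30).

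The forkhead genes, the lists of related genes and the tests were chosen with earlier results of these data known. Each tested member is given with its values; from each list, up to 4 called genes of largest change and up to 2 defining genes are named, and others named were chosen after their values were seen. Values of 5 genes, among them 1 forkhead gene that stays in the member counts, are not reported here, and all 5 were taken out of the related lists afterwards. Alternatives were other pseudocounts, filters, scalings and priors, limma voom on recovered reads, the replicate number as a block and leaving out each library. Coordinates are those of RefSeq on GRCm38, and Dnai1 and Dnai2 were matched as Dnaic1 and Dnaic2. Python 3.11.15, numpy 2.4.6, pandas 2.3.3 and matplotlib 3.10.9 were used. Intervals (exact Clopper-Pearson, 95%) and the floor of 3 reads cover counting error only.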

Additional observations from a re-analysis of the deposited data

How the results depend on the processing

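The calls of forkhead genes depended most on the filter and on single libraries. Leaving out a library moved the 2 members called higher to 0 to 1, the 2 called lower to 1 to 3 and their median log2 fold change of -0.08 to between -0.15 and -0.046, and where it leaves 1 library in a genotype that library is assumed to vary like the others. Over all genes it gave 258 to 437 called higher (440 with all libraries) and 212 to 266 lower (322). With no filter, where 24421 genes are adjusted together, 0 members were called in either direction, the members' median was -0.018, and 30 genes were called higher and 14 lower. With a pseudocount of 1, 1 member was called higher. The added limma voom on genes with 10 reads or more, which tests more genes, gave 4 members called lower, a median of -0.20 and 487 genes called lower in all.

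Calls in the related lists moved as follows; the cause was not tested. FOXO targets (2): 1 with a pseudocount of 1, 0 with no filter, 1 to 1 with a library left out. FOXM1 targets (0): 1 after quantile normalization, 0 to 1 with a library left out. Motile cilium (3): 1 with a pseudocount of 1, 0 with no filter, 0 to 1 with a library left out. V2 interneurons (2): 1 with no filter, 5 by the added voom. Floor plate (1): 0 with a pseudocount of 1 or no filter, 2 with no trend or by voom on recovered reads, 3 by the added voom, 0 to 1 with a library left out. FOXD3 (7): 1 with no filter. Cofactors (1): 0 with a pseudocount of 1, no filter or quantile normalization, 0 to 2 with a library left out.

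Of 238 results for single members, 216 kept their direction and side of the threshold, 15 lost the call, 3 gained it and 4 changed sign, all 4 near 0: Foxk2 (-0.046 to 0.028 with a library left out, 0.0099 without Het 2), Foxj3 (3.2e-05 without Homo 2) and Foxp2 (-0.32 to 0.0038, the latter without Homo 2).

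The replicate numbers name libraries of a pool and pair nothing by the labels; deviations of same-numbered libraries had a correlation of 0.047. With the replicate number as a block, 2 members were called higher and 2 lower, the same 4 genes (adjusted p = 0.000235 for Foxd3 and 0.00763, 0.0205 and 0.0239 for Foxb1, Foxj1 and Foxo6), and the block changed no call of a member. No group had the 4 or more samples needed to look for outlying libraries.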
